A study of Mus musculus with 2 samples.

Results

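Tubulin isotypes are the separate gene products of the alpha, beta and gamma tubulin families. The 10 genes described here are Tuba1a, Tuba1b and Tuba4a (alpha), Tubb2a, Tubb2b, Tubb3, Tubb4a, Tubb5 and Tubb6 (beta), and Tubg1 (gamma). They were chosen by gene symbol, matched exactly to the annotation in the deposited transcript tables, and are 10 of 55536 annotated genes. All 10 were found in both libraries and in both deposited quantifications. Total RNA, reduced for ribosomal RNA, came from hippocampus (a layer of it, by the tissue label) of female B6CASTF1/J mice aged 25 days. This strain is a first-generation cross between C57BL/6 and CAST, a strain derived from wild mice, and reads from the parental alleles were not separated. There is 1 group, with biological replicates 1 and 2; both libraries started from 300 ng of RNA and carry ERCC spike-ins, which are synthetic RNAs added as a standard. The replicates have separate biosamples and the same donor entry, so the spread between them may not cover the spread between animals.

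With 1 group, nothing is compared between conditions and no p-values are given; the account covers the levels of the genes, their proportions, the spread between the libraries and the assignment of reads between near-identical genes. Depth was 34919989 expected counts in the library of replicate 1 and 41206890 in that of replicate 2. The 10 genes took 93183 of these counts (0.267%) in replicate 1 and 119769 (0.291%) in replicate 2. Of the tissue's defining markers, the neuronal genes Snap25, Syt1 and Rbfox3 were at 796 ± 28.7, 400.4 ± 25.3 and 115 ± 10.2 TPM (SD, n = 2). All 6 markers fixed for the CA1, CA3 and dentate fields had means between 34.3 and 83.8 TPM. Mbp of myelin was at 981 TPM, and the proliferation genes Mki67 and Top2a were at 0.78 and 1.74 TPM. TPM is a level corrected for transcript length and for library depth.

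Microtubules are hollow polymers of alpha and beta tubulin heterodimers, and neurons use them to build axons and dendrites and as tracks for kinesin and dynein motors. Gamma tubulin does not enter the polymer wall; it sits in a ring complex that nucleates new microtubules. Isotypes of a family differ mostly in the acidic C-terminal tail, which carries added glutamates and, in most alpha isotypes, a terminal tyrosine that is removed and restored by enzymes. Tubulin genes also limit their own RNA: when free tubulin is plentiful, the factor TTC5 recognises the first residues of the nascent chain and the messenger is degraded.

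The coding tails of 7 of the genes are shown because most isotypes differ there as proteins. They also show how alike some of these genes are as RNA. Each is the last 60 coding bases, 5′ to 3′, up to and including the stop codon, from GENCODE M21 transcripts on GRCm38 (mm10). Capitals mark in-frame GAA and GAG codons, which encode glutamate, the residue to which further glutamates are added.
Tuba4a (chr1:75215622-75215681, minus strand): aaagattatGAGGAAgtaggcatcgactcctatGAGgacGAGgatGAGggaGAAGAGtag
Tubb2a (chr13:34074468-34074527, minus strand): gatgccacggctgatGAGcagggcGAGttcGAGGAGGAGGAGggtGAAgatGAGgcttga
Tubb2b (chr13:34127471-34127530, minus strand): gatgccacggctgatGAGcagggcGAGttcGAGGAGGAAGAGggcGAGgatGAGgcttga
Tubb3 (chr8:123421623-123421682, plus strand): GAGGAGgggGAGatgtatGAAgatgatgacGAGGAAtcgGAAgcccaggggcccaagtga
Tubb4a (chr17:57080690-57080749, minus strand): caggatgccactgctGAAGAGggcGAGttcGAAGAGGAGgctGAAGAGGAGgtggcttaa
Tubb5 (chr17:35834982-35835041, minus strand): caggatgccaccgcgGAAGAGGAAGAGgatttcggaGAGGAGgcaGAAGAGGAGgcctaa
Tubg1 (chr11:101126170-101126229, plus strand): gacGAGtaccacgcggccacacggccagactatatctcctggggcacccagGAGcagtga

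Of the 19 codons before the stop, 9 encode glutamate in Tubb4a and Tubb5, 8 in Tubb2a, Tubb2b and Tubb6, and 7 in Tuba4a and Tubb3. Tubg1, outside the polymer wall, has 2. The tail of Tuba4a ends on a glutamate codon, so Tuba4a encodes an alpha tubulin that lacks the terminal tyrosine. Tubb3 ends on AAG, a lysine codon. Counted from 1 at the first base of the 60, the Tubb2a and Tubb2b tails differ by G39A, T45C and A48G. Each of these 3 changes lies at the last base of a codon and leaves the encoded residue the same. The tails of Tubb2a and Tubb2b therefore do not differ as proteins. Over the whole coding sequence, Tuba1a and Tuba1b were identical at 1333 of 1356 aligned bases (98.3%) and Tubb2a and Tubb2b at 1291 of 1338 (96.5%). The other 16 pairs within the alpha and within the beta members lay between 80.3% and 85.9%.

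The start of the coding sequence is shown because it holds the residues read in autoregulation. Its first 12 bases are atgcgtgagtgc in Tuba1a and Tuba1b on chromosome 15 and atgcgcgagtgc in Tuba4a on chromosome 1, which encode methionine, arginine, glutamate and cysteine. In Tubb2a and Tubb2b on chromosome 13 they are atgcgcgagatc and atgcgagagatc, in Tubb3 on chromosome 8 atgagggagatc, and in Tubb4a and Tubb5 on chromosome 17 atgcgggaaatc and atgagggaaatc. These, like the start of Tubb6, encode methionine, arginine, glutamate and isoleucine. All 3 alpha and all 6 beta members therefore carry the N-terminal residues of their family. Tubg1 on chromosome 11 starts with atgccgagagaa and carries neither set.

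Together the 10 genes summed to 2146 TPM in replicate 1 and 2212 TPM in replicate 2, or 2179 ± 46.2 TPM (SD, n = 2). This was 0.511 ± 0.0227% of the TPM of all 22015 nuclear protein-coding genes (SD, n = 2). Ranked among those genes, Tubb2a stood at 51 and Tubb6 at 13330. Because hippocampus is a mixture of cells, fewer cells of a type and less RNA per cell cannot be told apart in any of these values.

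**Figure D1:**
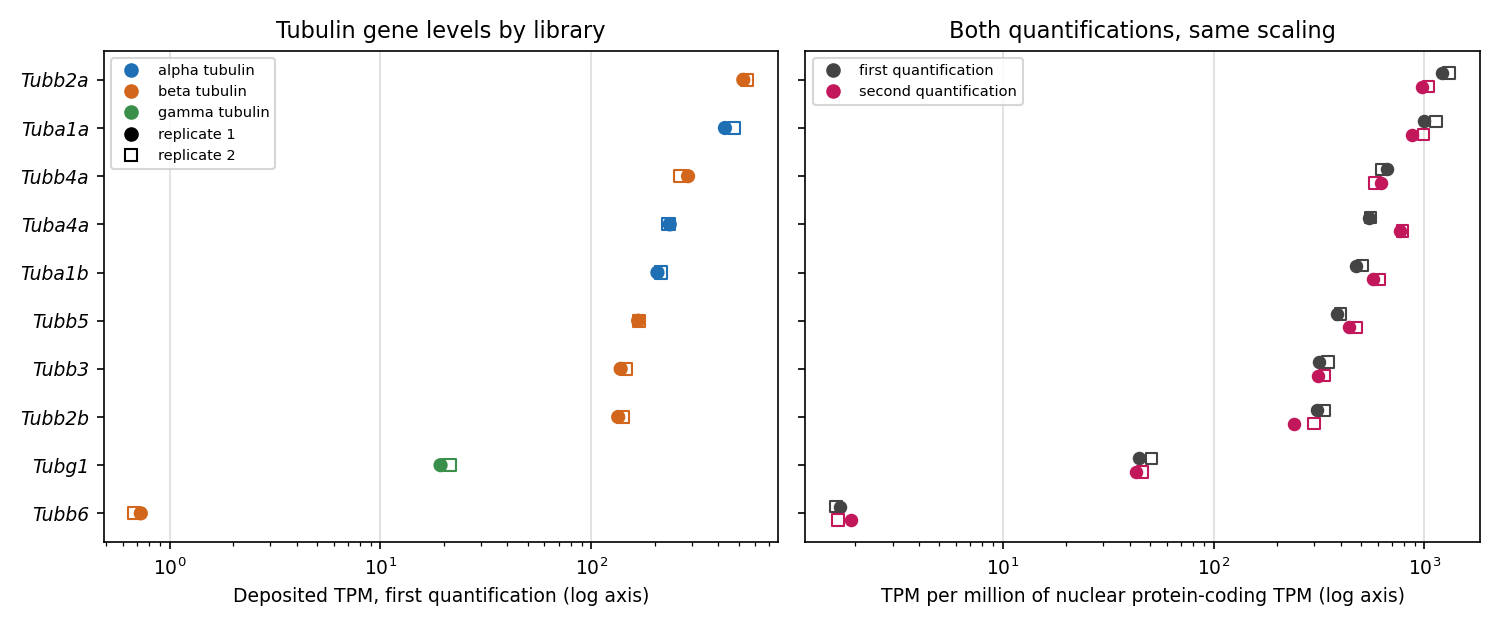
Level of each tubulin gene on log axes, with a filled circle for replicate 1 and an open square for replicate 2: deposited TPM of the first quantification at left, and both quantifications rescaled to the TPM of nuclear protein-coding genes at right. Levels at left run from Tubb2a at 527 and 549.9 TPM to Tubb6 at 0.73 and 0.68 TPM in replicates 1 and 2, and the points of the libraries lie close together beside the gaps between most genes.

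Among the alpha genes, Tuba1a (ENSMUSG00000072235.6, chromosome 15, 98949837 to 98953703, minus strand) was highest. It is the main alpha tubulin of developing neurons, and its human counterpart is mutated in cortical malformations. Its level was 431 TPM in replicate 1, against 476 in replicate 2, a mean of 454 ± 32.0 TPM (SD, n = 2) and rank 68 of nuclear protein-coding genes. Tuba4a (ENSMUSG00000026202.13, chromosome 1, 75214228 to 75219865, minus strand), the isotype without the encoded tyrosine, was at 236 and 233 TPM, a mean of 234 ± 2.13 TPM. Tuba1b (ENSMUSG00000023004.8, chromosome 15, 98931425 to 98934565, minus strand), a broadly used alpha isotype, was at 206 and 213 TPM, a mean of 209.7 ± 5.11 TPM. The 2 libraries did not overlap between any of these genes, so the order of the alpha members was Tuba1a, Tuba4a, Tuba1b in each.

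Among the beta genes, Tubb2a (ENSMUSG00000058672.7, chromosome 13, 34074274 to 34078007, minus strand), the beta isotype most used in mature brain, led all 10. Its level was 527 TPM in replicate 1, against 549.9 in replicate 2, a mean of 538 ± 16.5 TPM (SD, n = 2). Tubb4a (ENSMUSG00000062591.5, chromosome 17, 57080066 to 57087782, minus strand) is a brain isotype used by neurons and myelinating oligodendrocytes, and its human counterpart is mutated in a leukodystrophy. Its level was 288 and 263 TPM, a mean of 275 ± 17.9 TPM. Tubb5 (ENSMUSG00000001525.10, chromosome 17, 35833921 to 35838306, minus strand), the ubiquitous beta isotype, was at 167 and 168 TPM, the smallest relative spread of the 10 genes in the first quantification. In the second quantification its mean was 338 ± 20.4 TPM, and its relative spread was not the smallest. Tubb2a thus stood well above the other beta genes in both libraries, with Tubb4a next and the libraries of these 3 genes apart.

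Tubb3 and Tubb2b came next and could not be ordered beyond their spread in the first quantification. Tubb3 (ENSMUSG00000062380.4, chromosome 8, 123411424 to 123422015, plus strand) is the beta isotype used as a marker of neurons, and was at 138 and 146 TPM in replicates 1 and 2. Tubb2b (ENSMUSG00000045136.6, chromosome 13, 34126748 to 34130466, minus strand), whose human counterpart is mutated in cortical malformations, was at 134 and 141 TPM. Their means of 142 ± 5.91 and 138 ± 4.72 TPM (SD, n = 2) were 4.46 TPM apart, less than the larger SD, although Tubb3 was the higher in each library. Of the 9 neighbouring pairs in the order of the 10 genes, this was the exception: the other 8 had a gap above the larger SD and libraries that did not overlap. In the second quantification Tubb3 was at 229 and 249 TPM and Tubb2b at 177 and 221, so the libraries of this pair did not overlap there.

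Tubb6 (ENSMUSG00000001473.7, chromosome 18, 67390717 to 67402749, plus strand) is a beta isotype found mostly outside the nervous system. It was at 0.73 TPM from 29 expected counts in replicate 1 and 0.68 TPM from 34 in replicate 2. The exact Poisson 95% intervals of those counts run from 19.4 to 41.6 and from 23.5 to 47.5, so the libraries differed by less than counting error. Tubg1 (ENSMUSG00000035198.9, chromosome 11, 101119938 to 101126419, plus strand), which nucleates microtubules, was at 19.3 and 21.3 TPM, a mean of 20.3 ± 1.39 TPM (SD, n = 2). The 6 beta genes together were 65.0 times Tubg1 in replicate 1 and 59.7 times in replicate 2.

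As proportions of their families, Tuba1a and Tubb2a led. Tuba1a held 49.4% of the summed TPM of the 3 alpha members in replicate 1 and 51.6% in replicate 2, a mean of 50.5 ± 1.60% (SD, n = 2). Tuba4a held 26.1 ± 1.26% and Tuba1b 23.4 ± 0.342%. Tubb2a held 42.0% and 43.4% of the 6 beta members in replicates 1 and 2, a mean of 42.7 ± 0.980% (SD, n = 2). Tubb4a followed with 21.8 ± 1.59%, Tubb5 with 13.3 ± 0.0551%, Tubb3 with 11.3 ± 0.381%, Tubb2b with 10.9 ± 0.289% and Tubb6 with 0.0559%. In the first quantification Tubb3, the gene often taken to stand for neuronal tubulin, therefore contributed about as much beta tubulin RNA as Tubb2b. By gene total it contributed less than the ubiquitous Tubb5. In the second quantification Tubb3 held 12.1 ± 0.191%, Tubb2b 10.1 ± 1.18% and Tubb5 17.2 ± 0.302% (SD, n = 2). There the coding transcript Tubb5-201 alone was at 202 and 208 TPM in replicates 1 and 2, below Tubb3-201 at 213 and 235 TPM. In the first, Tubb5-201 was the higher, at 158 TPM in both libraries.

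**Figure D2:**
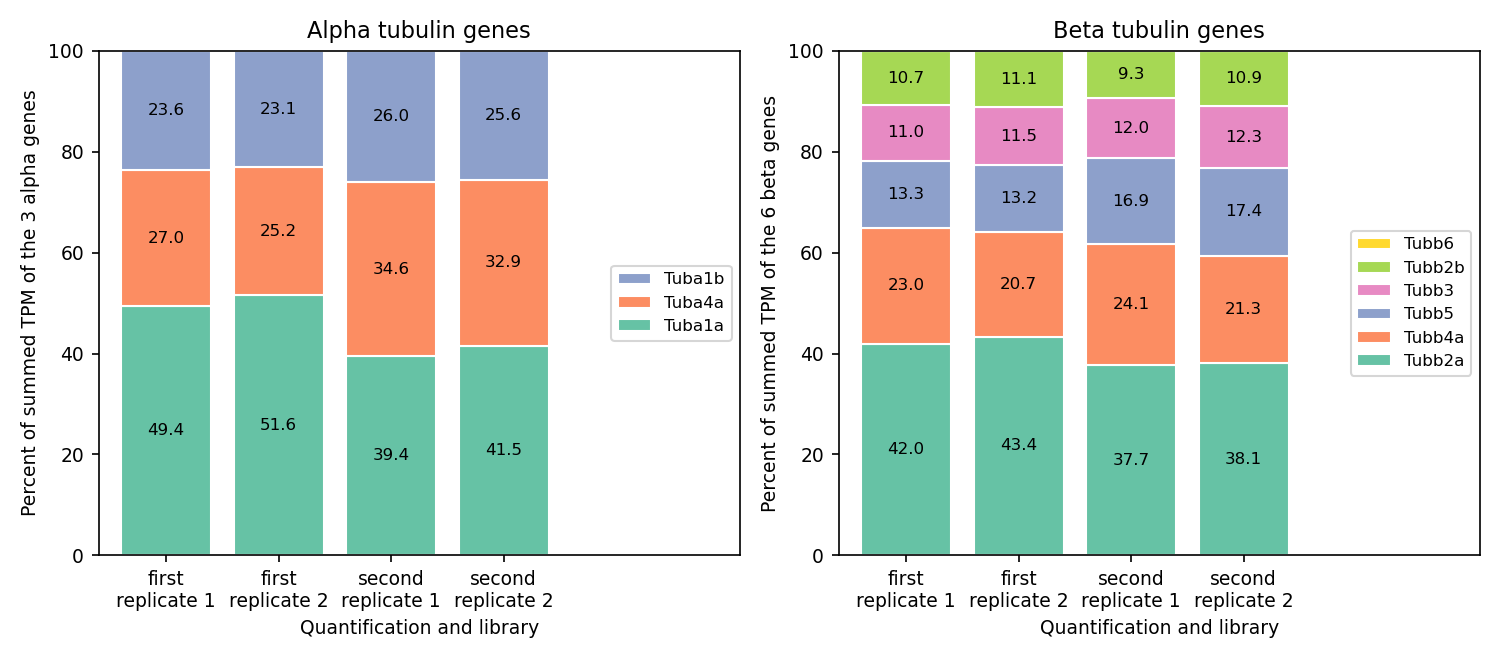
Percent of the summed TPM of the alpha members and of the beta members held by each gene, in each library and quantification. Tuba1a and Tubb2a hold the largest share in both libraries and both quantifications, and the share of Tuba4a is larger in the second quantification.

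The alpha members summed to 897 ± 35.0 TPM and the beta members to 1261 ± 9.82 TPM (SD, n = 2). Their ratio, alpha over beta, was 0.696 in replicate 1 and 0.727 in replicate 2 in the first quantification, and 0.851 and 0.869 in the second. Alpha RNA was below beta RNA in every one of these values. Within the near-identical pairs, Tuba1a was 2.09 and 2.23 times Tuba1b, and Tubb2a was 3.92 and 3.90 times Tubb2b.

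Of the 10 other named tubulin genes, 5 reached 1 TPM in both libraries. Tubb4b, a broadly expressed beta isotype also used in cilia, was by far the highest at 141 and 147 TPM, a mean of 144 ± 4.26 TPM (SD, n = 2), next to Tubb3 and Tubb2b. Tuba1c was at 31.1 and 31.6 TPM. Tubg2, the second gamma tubulin gene, was at 17.9 and 19.4 TPM, so that Tubg1 was 1.08 and 1.09 times as high. Tubd1 (delta tubulin, of centrioles) was at 4.0 and 2.76 TPM, Tuba8 at 2.46 and 2.15, and Tube1 (epsilon tubulin) at 1.36 and 0.88. Tuba3a, a testis isotype, had 3 and 1 counts in replicates 1 and 2, and Tuba3b, Tubal3 and Tubb1, the last known from platelets, had 0 counts in both.

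The libraries were then set against each other, replicate 1 over replicate 2, as a measure of how stable each gene was within the group. Of the 10 genes, 9 had at least 200 expected counts over both libraries, and none of the 9 differed by 2-fold or more in either quantification. Over all 12962 genes with that many counts, 0.725% were at least 2-fold higher in replicate 1 and 0.1% at least 2-fold lower. In the second quantification the shares were 1.27% and 0.151% of 13285 genes. Tubb4a was 1.10 times as high in replicate 1 (exact 95% interval 1.07 to 1.12, counting error only). Tuba1a was 0.905 times as high (0.888 to 0.923), Tubg1 0.907 (0.827 to 0.996), Tubb3 0.943 (0.911 to 0.975), Tubb2b 0.953 (0.923 to 0.984) and Tubb2a 0.957 (0.940 to 0.976). Tuba1b stood at 0.966, Tubb5 at 0.995 and Tuba4a at 1.01. The intervals of Tubb5 and Tuba4a include 1, and that of Tuba1b, at 0.938 to 0.995, ends just below it.

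The median log2 ratio of all genes tested was 0.07, and that of the 9 tubulin genes was −0.06, with 2 positive and 7 negative, while 34.7% of all genes tested were negative. Scaling by the spike-ins gave an all-gene median of 0.17 and a tubulin median of 0.05, with 7 tubulin genes positive and 2, Tuba1a and Tubg1, negative, beside 12.2% of all genes negative. Relative to the all-gene median, Tubb4a was above it and the other 8 below it with deposited TPM and in the second quantification. Counts scaled by the spike-ins, edgeR TMM or DESeq2 size factors gave the same division. These scalings differ only by a constant per library, so they had to match each other once the median was taken off. For Tubb4a the difference from the all-gene median was 0.06 on the log2 scale with deposited TPM, for Tuba1a −0.22 and for Tubg1 −0.21. The central 95% of all genes ran from −0.32 to 0.66 before that median is taken off. Beside this, the summed level of the 3 neuron markers was 1357 TPM in replicate 1 and 1267 in replicate 2, with 3 of 3 higher in replicate 1. The sum of the 4 oligodendrocyte markers was 1870 and 1907 TPM, with 4 of 4 lower in replicate 1. Of the 3 choroid plexus markers, Ttr was at 23.5 and 55.1 TPM, Kl at 3.43 and 3.38 TPM, and Folr1 at 0 and 14 counts. The part of these markers in the tubulin ratios was not tested.

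Because several tubulin genes are near copies, the sequence that can tell them apart was examined next. The sequences were GENCODE M21 transcripts, so variants of the CAST alleles are not covered. Every 31-base stretch of each gene's leading transcript was looked up in the transcripts of all other genes. In Tuba1a 77.0% of stretches were also found in another gene, in Tuba1b 75.4%, in Tubb2a 56.4%, in Tubb2b 45.9% and in Tubg1 24.2%. In the other 5 members the share was 1.87% (Tubb4a) to 5.16% (Tuba4a). Over 7919 protein-coding genes with a mean of at least 10 TPM the median was 0%, the 75th percentile 1.56% and the 90th 21.2%, so 5 of the 10 genes lay above the 90th percentile. At 100 bases, 65.1% of Tuba1a, 69.5% of Tuba1b, 36.9% of Tubb2a, 27.7% of Tubb2b and 4.11% of Tubg1 was shared, and 0% of the other 5. Tuba1a and Tuba1b had 946 of the 31-base stretches in common, Tubb2a and Tubb2b 807, and Tubg1 and Tubg2 407.

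**Figure D3:**
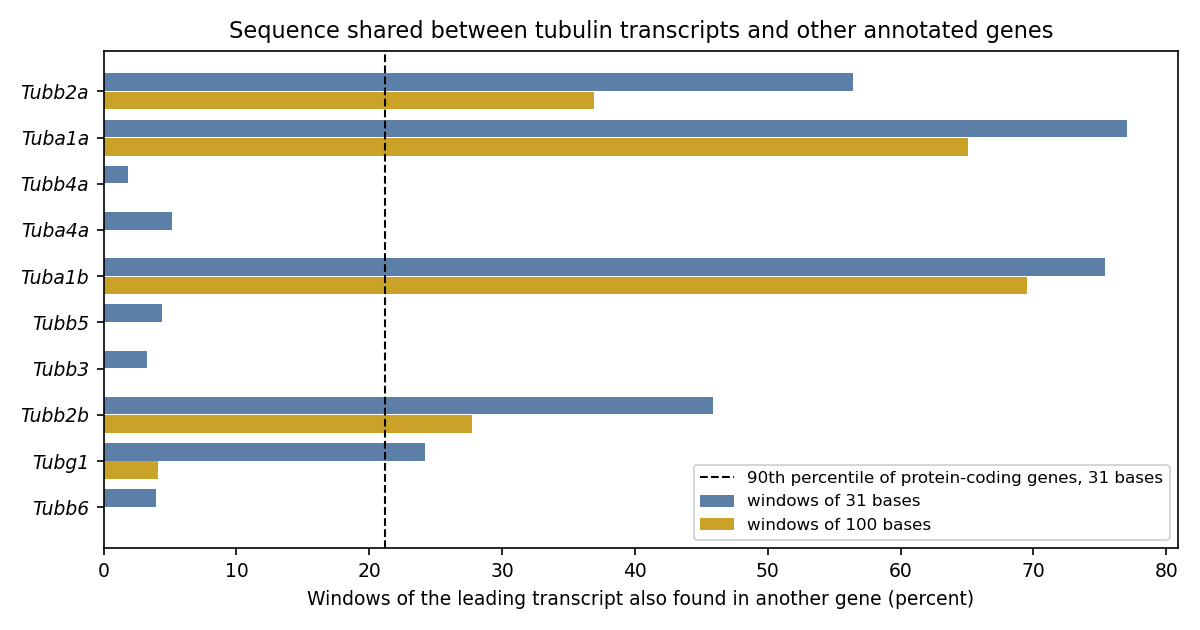
Percent of 31-base and 100-base windows of each gene's leading transcript that also occur in another annotated gene; the dashed line is the 90th percentile of expressed protein-coding genes at 31 bases. Tuba1a, Tuba1b, Tubb2a, Tubb2b and Tubg1 stand above that line, at 21.2%, and Tubb4a, at 1.87%, is the most distinct.

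The deposited uncertainty of read assignment followed the same division. The posterior SD of the count, a value the authors deposited, was 0 in both libraries for Tuba4a, Tubb3, Tubb5 and Tubb6. It was 0.50 and 0.32 counts for Tubb4a, 5.38 and 6.11 for Tubg1, 47.21 and 53.79 for Tubb2a, and 47.27 and 53.86 for Tubb2b. For Tuba1a it was 66.39 and 74.78 counts, and for Tuba1b 83.38 and 103.79, the last pair 1.03% and 0.992% of that gene's count. In counts, the 4 genes of the near-identical pairs thus had the widest assignment error, and Tuba1b the widest of these.

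The second deposited quantification of the same reads was then set beside the first for each gene. TPM was rescaled to the total of nuclear protein-coding genes in each, and the first was divided by the second. Tubb2b stood at 1.29 and 1.12 in replicates 1 and 2, Tubb2a at 1.24 and 1.25, Tuba1a at 1.14 and 1.15, Tuba1b at 0.828 and 0.834, and Tuba4a at 0.710 and 0.706. The others lay between 0.839 and 1.10, and all genes with a mean of at least 10 TPM had a median of 1.06. None of the 9 members tested differed by 1.5-fold or more in both libraries, where 2.01% of 7919 genes were higher in the first quantification and 2.16% lower. In the second quantification Tuba4a was at 562 and 581 TPM and Tubb4a at 459 and 431, so the order of these neighbours turned round. The other 8 neighbouring pairs kept their order. Tuba1b and Tubb4a, which were not neighbours in the first quantification, were at 422 and 459 TPM in replicate 1 of the second. In replicate 2 of the second they were at 451 and 431 TPM, so their order differed between the libraries. Tuba1a was 1.52 and 1.62 times Tuba1b there, with Tuba1a at 640.2 and 732 TPM.

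The alpha genes Tuba1a, Tuba1b and Tuba1c share sequence with processed pseudogenes, and the quantifications divided the reads of this group differently. Together Tuba1a, Tuba1b, Tuba1c and 9 such pseudogenes, which are copies of a messenger inserted elsewhere in the genome, held 33808 counts in replicate 1 and 45422 in replicate 2 of the first quantification. The second quantification gave this group 31125 and 41838. Another annotated gene, Gm49450, shares 742 of the 31-base stretches with Tuba1a and 685 with Tuba1b, and was not counted in the group. Tuba1a had 17665 and 24375 counts in the first and 16952 and 23399 in the second. Tuba1b had 8114 and 10472 counts in the first, fewer than its 10597 and 13752 in the second. The pseudogene Gm14150 (chromosome 2, 151458956 to 151460309) had 4016 and 5110 counts in the first quantification and 70.2 and 56.3 in the second. That was 11.9% and 11.2% of the group in the first, and 0.226% and 0.135% in the second. The count of Gm14150 was thus high in the first quantification alone, and the deposited posterior SD of its count, 60.24 and 70.32, is far smaller than the gap.

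The next pseudogenes of the group differed less. Gm3226 on chromosome 13 had 2018 and 2731 counts in the first quantification and 1871 and 2523 in the second, close to each other. Gm6682 on chromosome 12 had 512 and 839 counts in the first and 199.99 and 323 in the second. Gm5620 on chromosome 9 had 42.6 and 50.3 counts in the first and 51.5 and 59.9 in the second. The 9 pseudogenes together held 19.6% and 19.3% of the group in the first quantification, against 7.23% and 7.26% in the second. Of pseudogenes of the beta genes, Tubb4b-ps1 had 283 and 406 counts in the first and 378 and 562 in the second.

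**Figure D4:**
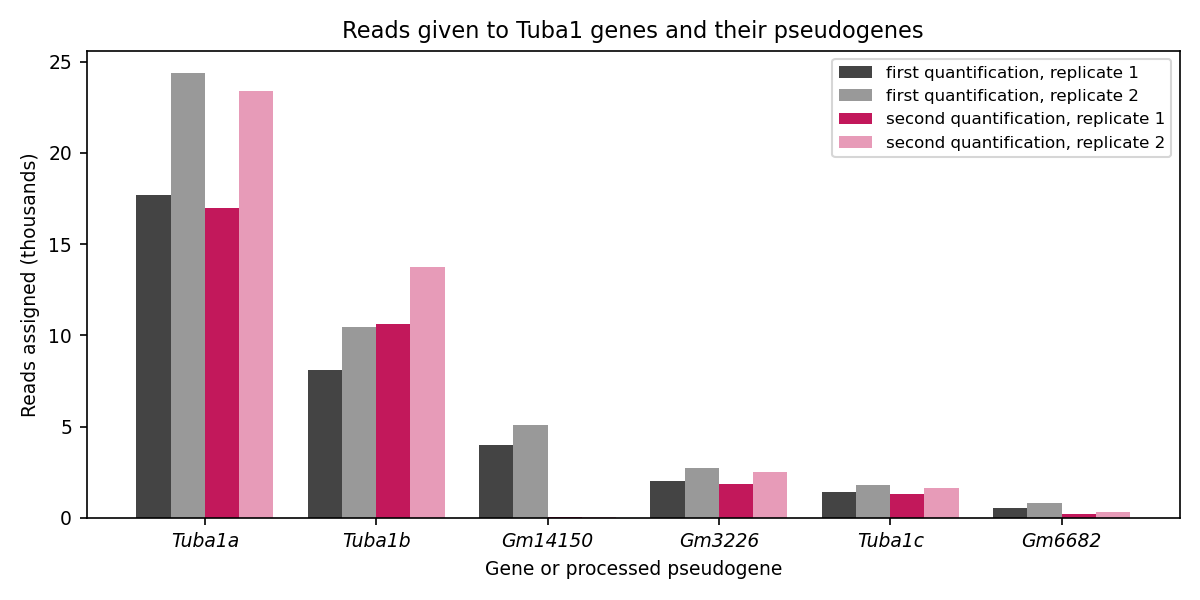
Reads assigned, in units of 1000, to the 6 genes and pseudogenes of the Tuba1 group with the most reads, with a bar for each library and quantification. Gm14150 has 4016 and 5110 reads in the first quantification and 70.2 and 56.3, too few to see, in the second, and Tuba1b has more reads in the second.

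At the level of transcripts, 3 of the 10 genes (Tuba1a, Tubb2a and Tubb4a) have a single annotated transcript and the other 7 have several, 25 transcripts in all 10 genes. The leading transcript of every gene was the same in both libraries and in both quantifications. Its share of the gene's TPM was over 90% in both libraries for 9 of 10 genes in the first quantification and for 6 of 10 in the second. For the 3 genes with a single annotated transcript, both of these results were fixed in advance. Tubg1-201 held 98.0% and 98.9%, Tuba1b-201 99.4% and 99.2%, Tubb2b-201 98.8% and 97.6%, and Tubb3-201 and Tubb6-201 100% in both libraries in the first quantification. In the second Tubb3-201 held 93.1% and 94.5%, Tubb2b-201 91.3% and 79.1%, and Tubb6-201, with few counts, 69.8% and 91.8%.

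Transcripts of Tuba4a and Tubb5 also divided differently between the quantifications. Tuba4a-201 held 78.3% and 86.3% of its gene in replicates 1 and 2 in the first quantification (82.3 ± 5.66%, SD, n = 2), and 38.5% and 42.2% in the second. Tuba4a-203 had 8 and 14 counts in the first quantification, but 1311 and 1606 counts in the second, or 29.5% and 28.8% of the gene. Tuba4a-206 held 13.6% and 7.61% in the first and 30.01% and 27.5% in the second. Tuba4a-202, the highest transcript with a complete annotated coding sequence and the source of the tail shown for this gene, had 537 and 556 counts in the first. For Tubb5 the coding transcript Tubb5-201 held 94.3% and 94.4% in the first quantification and 62.6% and 58.9% in the second. The retained-intron transcript Tubb5-204 took most of the rest, with 140.5 and 208 counts in the first and 1338 and 2000 in the second.

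**Figure D5:**
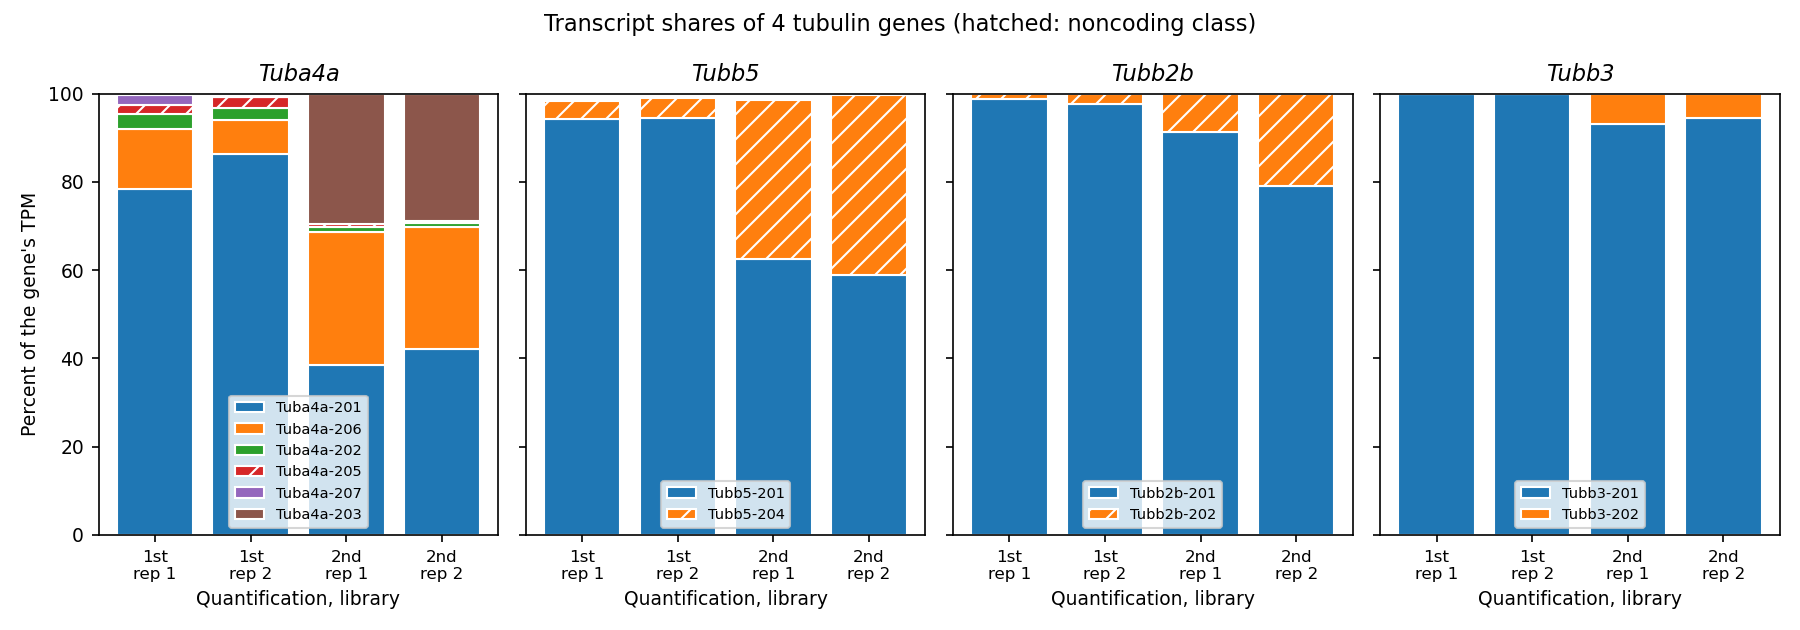
Percent of each gene's TPM held by its transcripts for Tuba4a, Tubb5, Tubb2b and Tubb3, in each library and quantification; hatched bars are noncoding classes and transcripts at 1% or less are left out. Tuba4a-201 is at 38.5% and 42.2% and Tubb5-201 at 62.6% and 58.9% in the second quantification, where Tuba4a-203, Tuba4a-206 and Tubb5-204 are larger.

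The genes that fold, modify and cut tubulin were described from lists, with TPM from the first quantification. All 8 subunits of the CCT chaperonin, which folds tubulin and actin, were above 1 TPM in both libraries, with Cct5 at 101 ± 5.47, Cct7 at 87.7 ± 5.51 and Tcp1 at 86.5 ± 5.61 TPM (SD, n = 2). All 7 genes of the tubulin folding cofactors were as well, led by Tbca at 59.5 ± 0.474, Tbcb at 53.2 ± 2.75 and the small GTPase Arl2 at 31.4 ± 0.643 TPM. All 11 genes of the gamma-tubulin ring complex and its recruitment were above 1 TPM, led by the small subunits Mzt1 at 27.1 ± 0.552 and Mzt2 at 26.8 ± 2.31 TPM, with the core subunit Tubgcp2 at 14.7 ± 0.262 TPM. Ttc5, the sensor of autoregulation, was at 26.9 ± 2.31 TPM.

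Of enzymes acting on the tails, 6 of 11 polyglutamylases and polyglycylases were above 1 TPM in both libraries. Ttll7, which adds glutamates to beta tubulin, was highest at 58.4 ± 3.13 TPM, followed by Ttll5 at 19.9 ± 2.72 and Ttll1 at 15.4 ± 0.728 TPM (SD, n = 2). Of the 6 deglutamylases, which shorten those chains, 4 passed 1 TPM. Agtpbp1, whose loss causes Purkinje cell degeneration in mice, stood at 145 ± 4.35 TPM, well over Agbl3 at 6.42 and Agbl4 at 5.55. Of the enzymes of the terminal tyrosine, the remover Vash1 was at 19.6 ± 1.29, the ligase Ttl at 14.2 ± 0.198 and the Vash partner Svbp at 8.08 ± 0.113 TPM.

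For acetylation of alpha tubulin, the deacetylase Sirt2, known from oligodendrocytes, was at 91.9 ± 4.73 TPM, the acetyltransferase Atat1 at 26.7 ± 2.60 and the deacetylase Hdac6 at 18.4 ± 1.68 TPM (SD, n = 2). Of 7 severing genes, 5 passed 1 TPM in both libraries, led by Katnal1 at 24.9 ± 0.714 and by Spast, whose human counterpart is mutated in hereditary spastic paraplegia, at 23.6 ± 0.354 TPM. Over all 10 lists, 51 of 68 genes had at least 200 counts, and none of the 51 differed by 2-fold between the libraries. Of all 12962 genes tested, only 0.725% were at least 2-fold higher in replicate 1 and 0.1% lower, so none among 51 is near the general share. The median log2 ratio of the 51 was 0.04, beside 0.07 for all genes tested. Of the 8 CCT subunits, 7 were lower in replicate 1, with a median of −0.13, where 34.7% of all genes tested were lower. All 4 severing genes tested and all 3 acetylation genes were higher in replicate 1, with medians of 0.18 and 0.19. So were 5 of the 6 polyglutamylases and polyglycylases tested, with a median of 0.19.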

How the data were processed

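Stranded total RNA libraries reduced for ribosomal RNA were made from 300 ng of RNA, per the labels, with 2 libraries in 1 group. Per the labels the assembly was mm10, and per the deposited notes genes followed GENCODE M21. Which aligner was run, and tool versions, are not given in the sources used. In the first quantification the authors deposited expected counts, TPM and the percent of its gene's TPM for each transcript, in the RSEM column format. In the second the authors deposited estimated counts and TPM in the kallisto column format. Depth was 34919989 and 41206890 expected counts in replicates 1 and 2, and intervals cover counting error only.

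Levels are deposited TPM. Between libraries, genes with at least 200 expected counts were called at 2-fold; between quantifications, protein-coding genes with a mean of at least 10 TPM were called at 1.5-fold in both libraries, after rescaling over nuclear protein-coding genes. Intervals of ratios are exact Clopper-Pearson. edgeR 4.0.16 and DESeq2 1.42.0 in R 4.3.3, on expected counts rounded to whole numbers, gave scaling factors only. Other steps used Python 3.11.15 with Biopython 1.88, matplotlib 3.10.9, numpy 2.4.6, pandas 2.3.3 and scipy 1.17.1. Ratio calls were checked on simulated counts.

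The members and lists were chosen with earlier results of these data known. The text names all 10 members, other tubulin genes with a mean of at least 1 TPM, the 5 tubulin pseudogenes with the most counts, and the 3 highest genes of each list; transcripts, markers and genes at 0 counts were named beside these. Some items that this rule covers are not reported here. Alternatives were other scalings, filters and thresholds, expected counts, all genes of a family, and each replicate alone.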

Additional observations from a re-analysis of the deposited data

How the results depend on the processing

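The summed level of 2179 TPM was 3695 in the second quantification, and 5108 in the first after rescaling over nuclear protein-coding genes. The share of Tuba1a was 40.5% with the second quantification and 48.7% over all named alpha genes, and that of Tubb2a was 37.9% with the second, 34.7% on expected counts and 37.99% over all named beta genes with 3 annotated beta pseudogenes. Genes at least 2-fold higher in replicate 1 numbered 94, against 52 with TMM, 52 with DESeq2 size factors, 169 in the second quantification, 1000 with a minimum of 20 counts, 1940 with none, and 432 at 1.5-fold. Genes lower in replicate 1 numbered 13, against 20 in the second quantification, 176 at 20 counts, 459 with none and 72 at 1.5-fold. None of the tubulin genes tested was called in any of these, with 10 tested at a minimum of 20 counts and with none, and 9 otherwise. Between quantifications 159 genes were higher in the first and 171 lower, against 40 and 5536 with TPM as deposited, 59 and 22 at 2-fold, and 247 and 314 at a minimum of 1 TPM. With TPM as deposited, 6 tubulin genes passed 1.5-fold: Tuba1b, Tuba4a, Tubb3, Tubb4a, Tubb5 and Tubg1. Leaving out each replicate in turn gave a summed level of 2146 to 2212 TPM, a Tuba1a share of 49.4 to 51.6%, a Tubb2a share of 42.0 to 43.4%, and 208 to 215 genes higher and 207 to 216 lower in the first quantification. A ratio of the libraries cannot be made without either one. No paired analysis was possible because the labels give a single group. Depth limits Tubb6 most, at 29 and 34 counts. Near-identical sequence leaves assignment error in Tuba1a, Tuba1b, Tubb2a and Tubb2b, and Tuba1a and Tuba1b also share sequence with Gm14150 and other pseudogenes. The counts of Tubb2a and Tubb2b were both lower in the second quantification. The causes of the changes with processing were not tested.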

Other observations

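The gene Tubb2a-ps2, an annotated beta tubulin pseudogene chosen after its values were seen, had 34.1 and 43.1 counts in replicates 1 and 2 in the first quantification and 276 and 317 in the second. Its change between the quantifications ran opposite to that of Gm14150, which had 4016 and 5110 counts in the first and 70.2 and 56.3 in the second. In the list of the gamma-tubulin ring complex and its recruitment, Cdk5rap2, also chosen after its values were seen, was at 5.01 and 4.04 TPM in the first quantification and 149 and 140 TPM in the second. Among the folding cofactors, Tbce was at 33.9 and 24.9 TPM in replicates 1 and 2, while Tbca was at 59.5 ± 0.474 TPM (SD, n = 2).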
